A study of Mus musculus with 6 samples.

Results

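The genes described here encode neuregulin 1, the EGF-type growth factors and the ErbB receptors that bind them: *Nrg1*, *Areg*, *Ereg*, *Hbegf*, *Tgfa*, *Btc* and *Epgn* as ligands, and *Egfr*, *Erbb2* and *Erbb3* as receptors. They were taken by name, with every probe set that the platform annotation assigns to exactly 1 of these 10 symbols. The rule itself uses no measured value, but the genes were chosen with earlier results of these data known. This gave 20 probe sets of 45037 and 9 of 18193 genes, 6 for ligands and 3 for receptors. No probe set was named for *Areg*, which encodes amphiregulin, in the annotation used, and this gene was not analysed here.

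Expression was measured in 4434 cells, a *Braf*-mutated mouse melanoma line, on 6 Affymetrix arrays at day 20. All cells carried 1 lentiviral vector for *Oct4*, *Sox2*, *Klf4* and blasticidin resistance under a tetracycline-responsive promoter, and another that supplied the doxycycline-dependent transactivator with mCherry. The 3 + dox arrays came from cells given doxycycline and selected with blasticidin from day 3, and the 3 − dox arrays from cells that held the same vectors and received no doxycycline. The comparison of + dox with − dox therefore covers doxycycline and the reprogramming factors together, in 1 line. Whether the − dox cells were also selected was not stated, so selection may differ between the groups too. Separate cultures were not stated for the arrays of a group, and the p-values describe the scatter among these 6 arrays alone, which may be technical.

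ErbB receptors are tyrosine kinases of the cell surface that pair when a ligand binds. EGFR binds the EGF-type ligands, ERBB3 binds neuregulins and has little kinase activity of its own, and ERBB2 has no known ligand and serves as a partner of the others. The ligands are made as membrane proteins and released by proteases, and the receptors signal through the RAS-MAPK and PI3K-AKT pathways. Neuregulin and ERBB3 are best known in neural crest derivatives, among them Schwann cells and melanocytes, and mutant BRAF drives the same MAPK pathway without a ligand.

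The values are log2 RMA values, in which a difference of 1 is a doubling of signal. Medians of the 6 arrays lay between 5.33 and 5.37, and lower quartiles between 3.84 and 3.90. On the first principal component + dox 1 scored 10.5, closer to the − dox arrays (−39.6 to −30.7) than + dox 2 (41.9) and + dox 3 (54.4), and − dox 1 differed from the rest of its group on the next component. Among the melanocyte markers *Tyr* (3.31 to 3.69) and *Mlana* (3.41 to 3.68) lay under the lower quartile of every array, while *Sox10* (6.12 to 6.46), *Pmel* (5.25 to 5.43) and *Mitf* (6.17 to 8.15, the highest in − dox 1) lay higher. *Dct* ranged from 4.21 to 4.61 and *Tyrp1* from 3.50 to 4.03. Of the 8 melanocyte markers 0 passed the limma test at an adjusted p under 0.05, and 1 had an unadjusted p under 0.05.

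Of the ligand genes, *Ereg* and *Nrg1* rose in + dox cells, 4.67-fold and 3.43-fold. None of the 3 receptor genes passed the test, although *Erbb3* was higher in every + dox array than in any − dox array. *Hbegf*, *Tgfa*, *Btc*, *Epgn*, *Egfr* and *Erbb2* did not pass. In all, 2 of 9 genes passed at an adjusted p under 0.05 (limma, Benjamini-Hochberg over all genes), both higher, where 4.87% of all genes passed, 3.07% as higher and 1.8% as lower. An unadjusted p under 0.05 was reached by 4 of 9, against 21.7% of all genes. The median change of the 9 genes was 0.32, against 0.01 over all genes, and 7 of 9 changes were above 0. The groups did not overlap for 4 of 9 genes, against 26.9% of all genes. Because the genes were chosen with earlier results of these data known, these shares describe the set and do not test it.

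**Figure D1:**
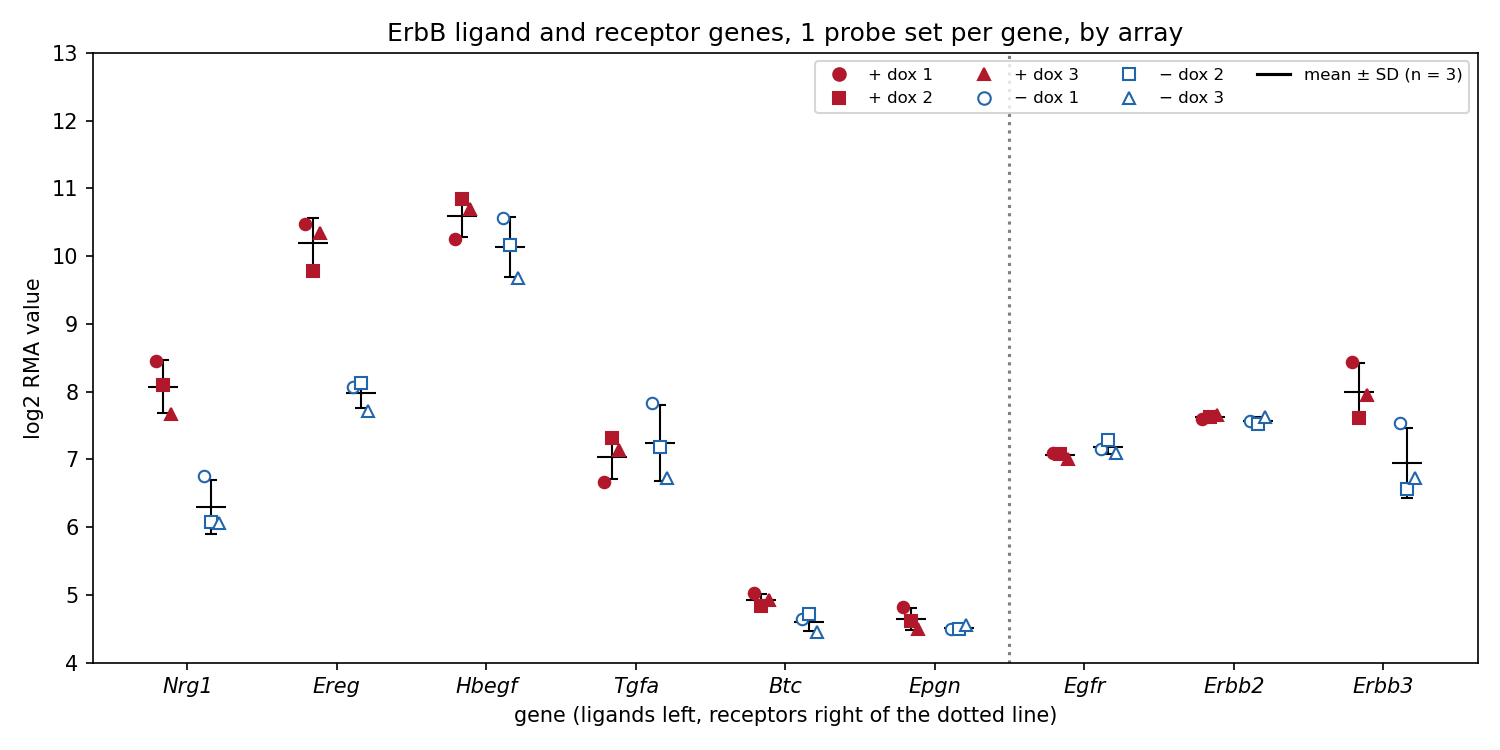
Log2 RMA value (vertical axis) of the 9 measured genes on each array, with ligands left and receptors right of the dotted line; red filled marks show + dox, blue open marks show − dox, and bars give mean ± SD (n = 3). The + dox values of *Ereg* (9.78 to 10.47) and *Nrg1* (7.67 to 8.45) lie above all − dox values of the same gene, and those of *Erbb2* overlap.

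*Ereg* encodes epiregulin, a ligand of EGFR and ERBB4. Its probe set 1419431_at stood at 10.47, 9.78 and 10.34 in + dox arrays 1, 2 and 3, and at 8.07, 8.13 and 7.72 in − dox arrays 1, 2 and 3. All + dox arrays lay above all − dox arrays, with a gap wider than the range within either group. Means were 10.20 ± 0.37 and 7.97 ± 0.22 (SD, n = 3 arrays per group, as for all means given here), a rise of 2.22 (SE 0.21, 95% interval 1.72 to 2.72, limma adjusted p = 0.00537). In bulk samples such as these, a change in the number of expressing cells and a change in RNA per cell cannot be told apart. The rise ranked 129th among all genes. *Ereg* passed in 15 of 15 alternative analyses of the gene fit, with changes of 2.09 to 2.43 and limma adjusted p-values of 0.00155 to 0.0373. In the fit over all probe sets, its probe set did not pass without − dox 3.

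*Nrg1* encodes neuregulin 1, the ligand of ERBB3 and ERBB4. The only probe set named for it, 1456524_at, stood at 8.45, 8.10 and 7.67 in + dox and at 6.75, 6.08 and 6.06 in − dox arrays. The groups were apart, and the highest − dox value was that of − dox 1. The rise was 1.78 (SE 0.26, 95% interval 1.15 to 2.41, limma adjusted p = 0.0202), from 6.30 ± 0.39 to 8.07 ± 0.39. It no longer passed without + dox 2 (1.76, adjusted p = 0.0930), without − dox 2 (1.67, adjusted p = 0.0881) or without − dox 3 (1.66, adjusted p = 0.0937). With 1 probe set, no other part of the transcripts bears on this value.

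*Hbegf* encodes heparin-binding EGF-like growth factor, a ligand of EGFR and ERBB4. Probe set 1418350_at read 10.25, 10.85 and 10.70 in + dox and 10.56, 10.16 and 9.68 in − dox arrays, and the groups overlapped. The change of 0.47 (95% interval −0.15 to 1.08, limma adjusted p = 0.364) did not pass. The other probe set, 1418349_at, read 9.40, 10.05 and 10.03 against 9.80, 9.45 and 8.92, and gave a change of 0.44 (probe set fit, adjusted p = 0.470). On both, + dox 1 was the lowest of its group and − dox 1 the highest of its own. With both of these arrays left out the change was 0.86 (limma adjusted p = 0.0188).

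*Tgfa*, for transforming growth factor alpha, another EGFR ligand, read 6.67, 7.31 and 7.14 in + dox and 7.83, 7.18 and 6.72 in − dox arrays on 1421943_at. The groups overlapped, with the lowest value in + dox 1 and the highest in − dox 1. The change of −0.20 did not pass (95% interval −0.93 to 0.52, limma adjusted p = 0.770), and its sign turned without − dox 1. Probe set 1450421_at gave a change of −0.11 and 1421942_s_at, of a type whose probes may match several transcripts, by −0.07.

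*Btc*, for betacellulin, a ligand of EGFR and ERBB4, was low but higher in every + dox array on 1435541_at, with 5.02, 4.83 and 4.92 against 4.64, 4.72 and 4.45. This change of 0.32 did not pass (SE 0.11, 95% interval 0.05 to 0.59, unadjusted p = 0.0251, limma adjusted p = 0.157). Its other probe set, 1421161_at, lay between 2.92 and 3.33, under the lower quartile of each array, and gave a change of 0.17. *Epgn*, for epigen, an EGFR ligand, read 4.82, 4.61 and 4.50 in + dox and 4.49, 4.49 and 4.55 in − dox arrays. The groups overlapped, and the change of 0.13 did not pass (95% interval −0.13 to 0.40, limma adjusted p = 0.559).

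*Epgn*, *Ereg*, *Areg* and *Btc* follow each other in this order in the RefSeq gene table of mouse assembly GRCm38.p6. The changes of the measured neighbours were 0.16 for *Cxcl1*, 0.03 for *Cxcl2* and −0.45 for *Mthfd2l* on the *Epgn* side, and 0.06 for *Parm1* and 0.11 for *Rchy1* beyond *Btc*. Of the 8 measured genes in this stretch, *Ereg* was the 1 that passed. *Mthfd2l*, which encodes a mitochondrial folate enzyme, was lower in every + dox array but did not pass (limma adjusted p = 0.129).

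*Erbb3* read 8.44, 7.61 and 7.95 in + dox and 7.54, 6.57 and 6.73 in − dox arrays on probe set 1434606_at. The groups were apart by the distance from 7.61 to 7.54, and array 1 was the highest in both. The change was 1.05 (SE 0.31, 95% interval 0.31 to 1.80), from 6.95 ± 0.52 to 8.0 ± 0.42, and did not pass (limma adjusted p = 0.113). Without − dox 1 it was 1.35 (limma adjusted p = 0.0312), and without both arrays numbered 1 it was 1.13 (limma adjusted p = 0.00387). With any other 1 array left out it did not pass (0.83 to 1.25, adjusted p-values of 0.174 to 0.292), and as the mean of both probe sets it was 0.54 (limma adjusted p = 0.168). The second probe set, 1452482_at, read 4.33, 4.71 and 4.47 against 4.74, 4.50 and 4.19, and its change was 0.03 (95% interval −0.38 to 0.44). The probe sets of *Erbb3* thus differed, and only the brighter one had groups apart.

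*Erbb2* was nearly flat over all arrays, with 7.60, 7.62 and 7.65 in + dox and 7.57, 7.52 and 7.62 in − dox arrays. The change of 0.05 had a 95% interval of −0.15 to 0.26 (limma adjusted p = 0.786), which leaves out a change of 2-fold in either direction.

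*Egfr* had 7 probe sets, with changes from −0.68 to 0.20. The brightest, 1460420_a_at, of a type shared by alternative transcripts of a gene, read 7.10, 7.08 and 7.01 in + dox and 7.15, 7.29 and 7.09 in − dox arrays. Its groups overlapped at a change of −0.11 (95% interval −0.34 to 0.12, limma adjusted p = 0.568). Probe set 1424932_at read 5.91, 5.95 and 5.83 against 6.33, 6.21 and 6.29. It was lower in every + dox array, by −0.38 (SE 0.09, 95% interval −0.60 to −0.16, unadjusted p = 0.00445), and did not pass over all probe sets (adjusted p = 0.0869). Probe set 1435888_at read 5.82, 5.97 and 5.14 against 5.95, 6.43 and 6.59, a change of −0.68 with overlapping groups (95% interval −1.31 to −0.05, adjusted p = 0.235). The other 4 gave changes of −0.04 to 0.20, and 1457563_at lay under the lower quartile of every array.

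**Figure D2:**
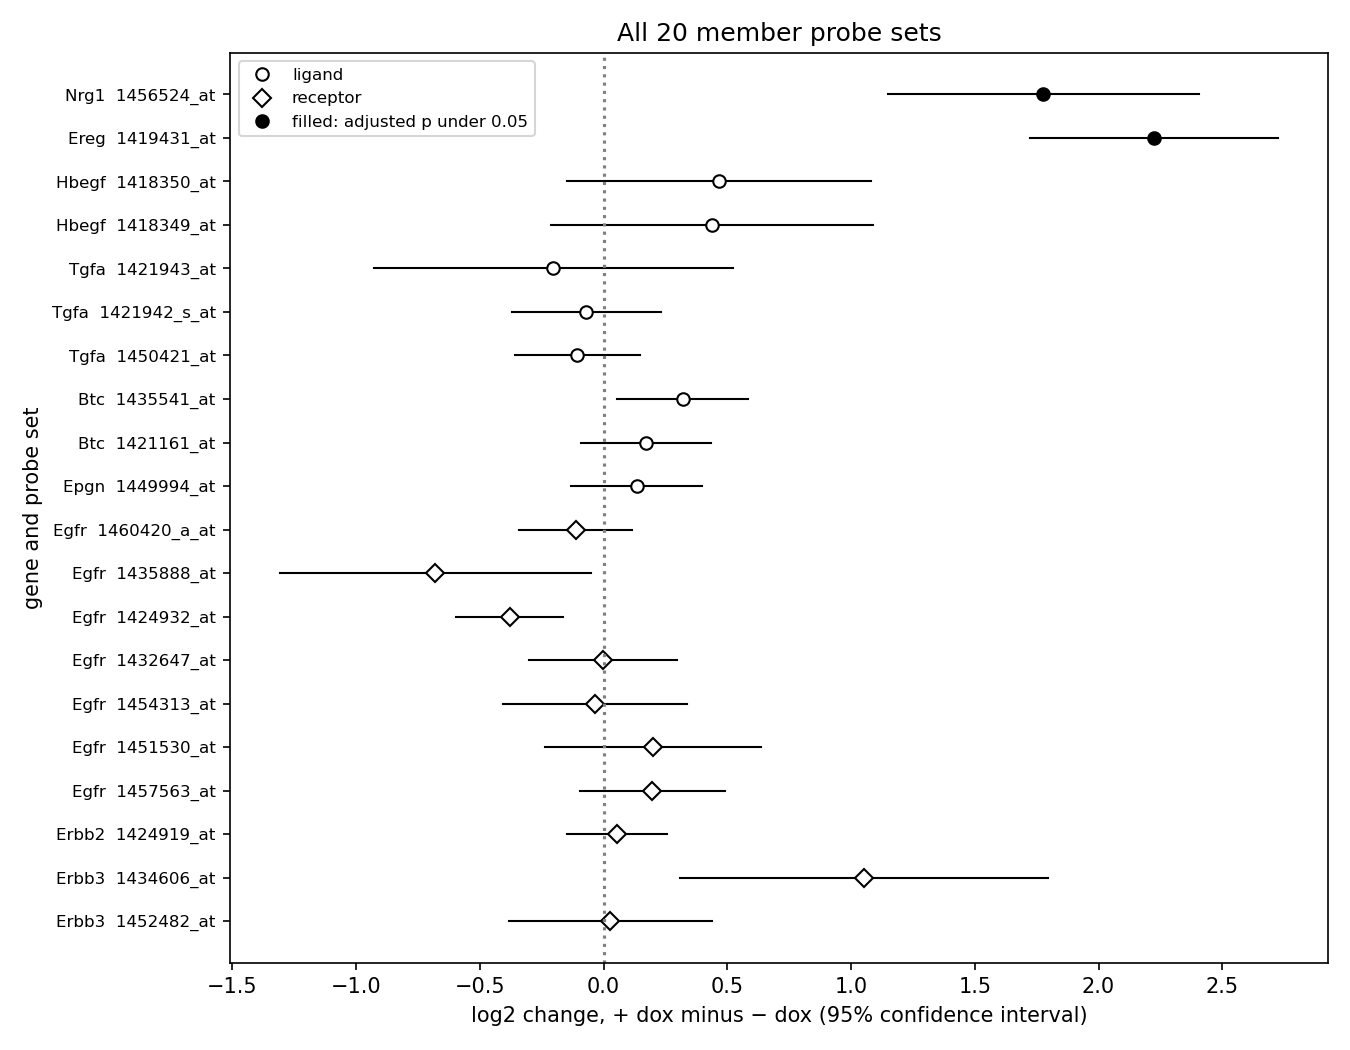
Change (+ dox minus − dox, log2 scale, horizontal axis) with its 95% confidence interval for all 20 probe sets, from the fit over all probe sets; circles are ligands, diamonds receptors, and filled symbols passed at an adjusted p under 0.05. Only the probe sets of *Nrg1* (1.78) and *Ereg* (2.22) are filled, and those of *Egfr* lie on both sides of 0.

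In the fit over all probe sets, 2 of 20 passed, against 2.53% of all, with an adjusted p of 0.00821 for *Ereg* and 0.0281 for *Nrg1*. Another 4 had an unadjusted p under 0.05, so that 6 of 20 did, against 18.5% of all probe sets. The groups did not overlap for 5 of 20 (4 higher and 1 lower), against 23.4% of all probe sets, and the median change was 0.09. Without − dox 3, 0 of 20 passed in this fit, against 0.246% of all probe sets, and without both arrays numbered 1, 5 of 20 did, against 11.4%. Array − dox 1 was the highest of its group for 10 of 20 probe sets, against 35.7% of all probe sets, and + dox 1 was the highest of its own for 10 of 20, against 38.2%.

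**Figure D3:**
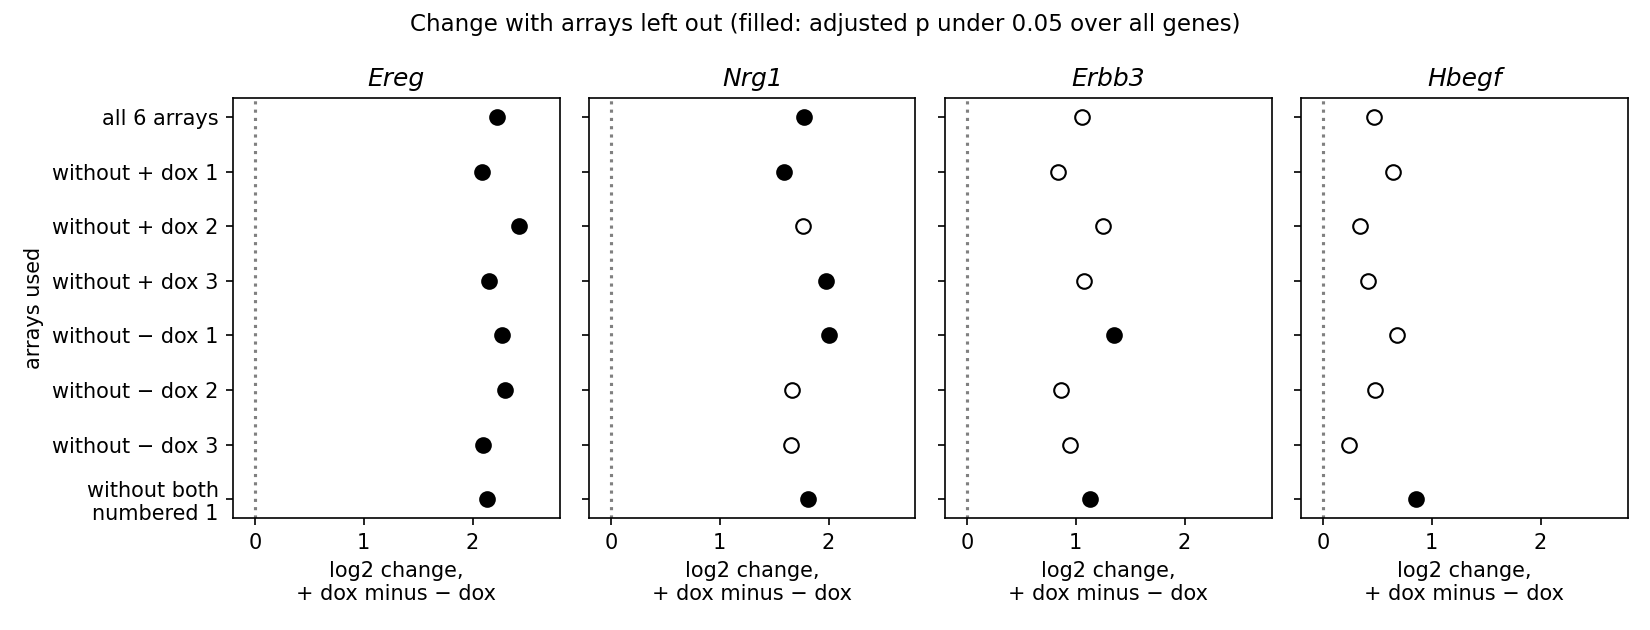
Change (+ dox minus − dox, log2 scale, horizontal axes) of *Ereg*, *Nrg1*, *Erbb3* and *Hbegf* with all 6 arrays, with each array left out in turn and without both arrays numbered 1; filled points passed at a limma adjusted p under 0.05 over all genes. *Ereg* passes in every row, *Nrg1* fails in 3, and *Erbb3* passes without − dox 1 (1.35) and without both arrays (1.13).

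Ligands were set against the receptors that bind them, or against a partner, as the difference of ligand minus receptor on each array, in 7 pairs chosen with the values known. Levels of different probe sets cannot be compared, so only the change of this difference is given. An exact two-sided permutation test over 6 arrays cannot go below p = 0.1. The difference of *Nrg1* and *Erbb3* moved by 0.72 and that of *Nrg1* and *Erbb2* by 1.72, each with groups apart (exact p = 0.1, 0.14 adjusted over the pairs). For *Ereg* and *Egfr* the move was 2.34, and for *Btc* and *Egfr* 0.43 and *Epgn* and *Egfr* 0.25, again with groups apart at an exact p of 0.1. Changes of *Egfr* (−0.11) and *Erbb2* (0.05) were small. The moves of 2.34 and 1.72 therefore largely repeat the changes of *Ereg* (2.22) and *Nrg1* (1.78). *Epgn* by itself had overlapping groups. *Hbegf* and *Egfr* (0.58, exact permutation p = 0.2) and *Tgfa* and *Egfr* (−0.09, exact permutation p = 0.9) overlapped. The pairs with *Egfr* all use the same *Egfr* values, and those with *Nrg1* the same *Nrg1* values. They are therefore not separate results. Such differences were not formed over all genes, so no share can be set beside the groups apart.

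The other genes of the family, *Egf*, *Nrg2*, *Nrg3*, *Nrg4* and *Erbb4*, gave small differences. Of these 5, 0 passed the limma test and 0 had an unadjusted p under 0.05, with changes of 0.10, −0.14, 0.02, −0.10 and 0.09. *Nrg3*, and *Erbb4*, which encodes the remaining receptor for neuregulins and several EGF-type ligands, lay under the lower quartile of every array. A second *Nrg2* probe set, 1457283_at, was lower in every + dox array, at 5.01, 5.0 and 4.63 against 5.55, 6.02 and 5.26, and did not pass (−0.73, probe set fit, adjusted p = 0.138).

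In a list of proteases and cofactors that release ErbB ligands from the membrane, together with their inhibitor *Timp3*, the inhibitor rose and the proteases *Adam19* and *Rhbdl2* fell. Of 14 measured, these 1 and 2 passed at a limma adjusted p under 0.05, against 4.87% of all genes. Another threshold, an unadjusted p under 0.05, was met by 7 of 14, against 21.7% of all genes. The median change was −0.02, and 7 of 14 changes were above 0. The groups did not overlap for 7 of 14 (2 higher and 5 lower), against 26.9% of all genes. *Timp3*, an inhibitor of metalloproteinases that blocks the sheddase ADAM17, read 8.94, 6.84 and 8.01 in + dox and 5.22, 4.78 and 4.51 in − dox arrays, a rise of 3.09 (SE 0.51, limma adjusted p = 0.0271). Its + dox arrays differed among themselves by more than the whole − dox range, and 3 other probe sets of the gene gave changes of 3.48, 2.65 and 1.79. The call was lost without + dox 3 (adjusted p = 0.112), − dox 2 (0.0994) or − dox 3 (0.115).

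*Adam19*, a metalloproteinase known to process neuregulin, read 9.06, 8.82 and 8.87 in + dox and 9.84, 10.16 and 9.93 in − dox arrays. It fell by 1.06 (SE 0.12, limma adjusted p = 0.0110), and its other probe set gave a change of −0.81. *Rhbdl2*, an intramembrane rhomboid protease, read 6.48, 6.28 and 6.48 against 7.19, 7.24 and 7.18 and fell by 0.79 (SE 0.10, limma adjusted p = 0.0133), with 0.04 and −0.45 on its other probe sets. As the mean of all its probe sets *Rhbdl2* gave −0.40 and did not pass (limma adjusted p = 0.0809). *Adam17*, the main sheddase of several EGFR ligands, was lower in every + dox array and did not pass (−0.53, limma adjusted p = 0.121). *Adam8* had the lowest change of the list and was lower in every + dox array, but did not pass (−1.15, limma adjusted p = 0.176). Of the same list, *Adam15* was higher in every + dox array and did not pass (0.41, limma adjusted p = 0.144). *Adam10* overlapped between the groups (−0.09). The calls of *Adam19* and *Rhbdl2* were lost on removal of any 1 array numbered 2 or 3, with adjusted p-values up to 0.0627 and 0.0741.

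Among the adaptors, kinases and small GTPases next to the receptors, 0 of 32 measured genes passed the limma test, with 7 at an unadjusted p under 0.05, near the 21.7% of all genes, and a median change of 0.03. The smallest p-values were those of *Plcg1*, a phospholipase recruited by EGFR, at −0.76 (limma adjusted p = 0.0754), and of *Pik3cb*, a catalytic subunit of PI3K, at 0.55 (limma adjusted p = 0.0805). The change of *Plcg1* was not seen on its other probe sets (0.13 and 0.02). Left out in turn, the arrays gave 0 to 2 calls in this list, and leaving out both arrays numbered 1 gave 5 of 32, against 20.1% of all genes.

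Of 20 inhibitors and turnover factors of the receptors, 0 passed as higher and 2 as lower, against 3.07% and 1.8% of all genes. At an unadjusted p under 0.05 there were 7 of 20, against 21.7% of all genes, and the median change was −0.03. *Lrig1*, a membrane protein that promotes degradation of ErbB receptors, read 9.62, 9.63 and 9.65 in + dox and 10.32, 10.38 and 10.20 in − dox arrays. It fell by 0.67 (SE 0.09, limma adjusted p = 0.0162), its other probe sets gave changes of −0.63 and −0.05, and the + dox arrays differed by 0.03 at most. *Socs4*, a SOCS protein linked to EGFR turnover, read 8.15, 8.16 and 8.18 against 8.79, 8.88 and 8.99 and fell by 0.72 (SE 0.09, limma adjusted p = 0.0147), while its 3 other probe sets gave changes of 0.05, 0.26 and 0.09. As the mean of all its probe sets *Socs4* gave a change of −0.08 and did not pass (limma adjusted p = 0.732). Both calls were lost on removal of any 1 array numbered 2 or 3, with adjusted p-values up to 0.0781 for *Lrig1* and 0.0790 for *Socs4*.

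Of 15 genes that growth factors induce early, 1 passed, against 4.87% of all genes. Only 1 of 15 had an unadjusted p under 0.05, against 21.7% of all genes, and the median change was 0.02. *Junb*, a subunit of the AP-1 transcription factor, read 9.44, 9.42 and 9.68 in + dox and 8.50, 9.03 and 8.56 in − dox arrays, a rise of 0.82 (SE 0.17, limma adjusted p = 0.0473). This call was lost in 10 of 15 alternative analyses, each single array left out among them, with adjusted p-values up to 0.170. *Myc*, with the next smallest p, gave a change of −0.39 (limma adjusted p = 0.288).

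**Figure D4:**
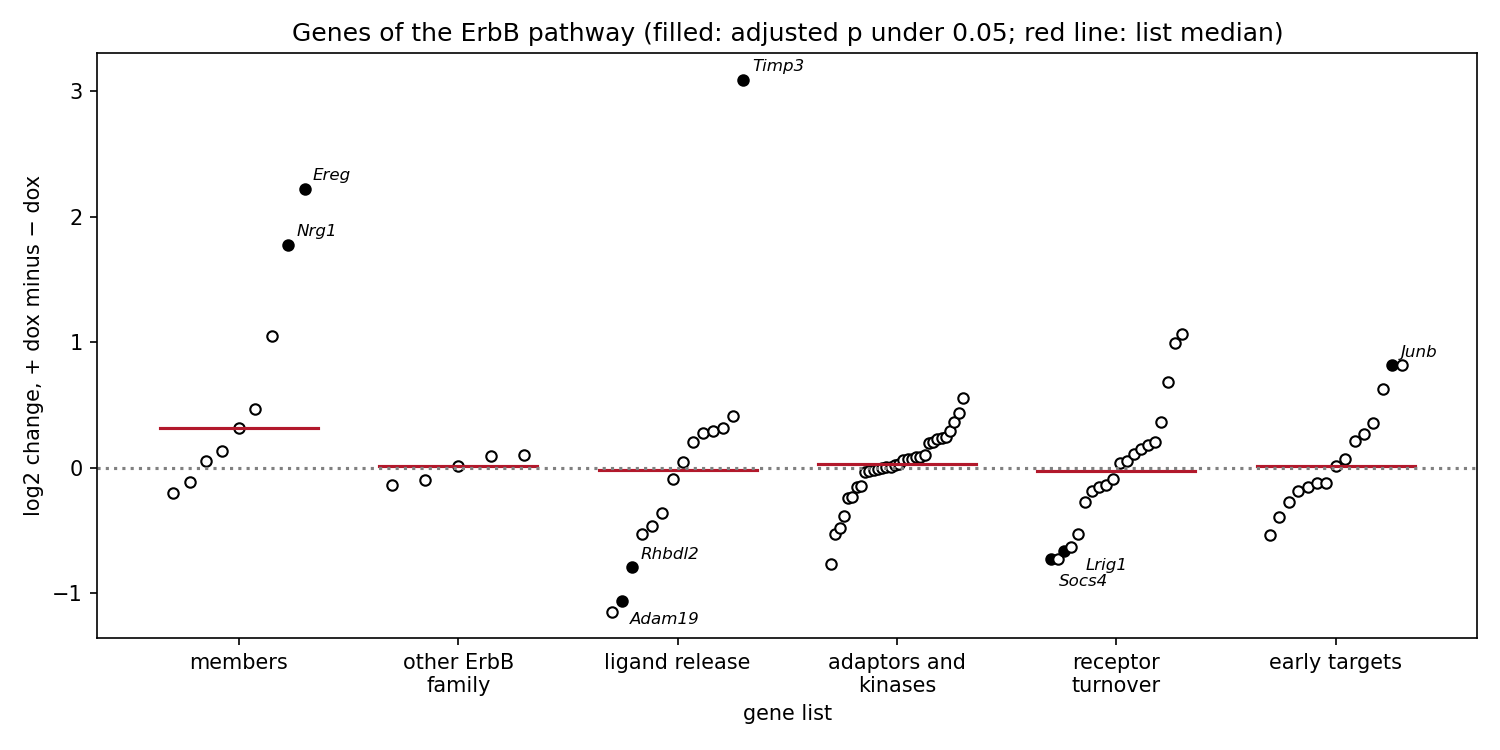
Change (+ dox minus − dox, log2 scale, vertical axis) of each measured gene, by list, with genes in order of change; filled points passed at a limma adjusted p under 0.05 over all genes, and red lines are list medians. The 9 genes described here have a median of 0.32 and the 5 other lists medians of −0.03 to 0.03. All were chosen with earlier results of these data known.

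Markers of other cell types that use these genes were measured beside them, and their part in the results was not tested. Of 7 keratinocyte markers, 1 passed, *Krt14*, a keratin of basal epidermal cells (8.21, 7.68 and 8.77 against 4.67, 4.47 and 4.50, limma adjusted p = 0.00173). The mean level of that list ranged over 5.26 to 5.41 on the + dox arrays, against 4.66 to 4.81 for − dox, and over 4.85 to 4.87 against 4.69 to 4.84 without *Krt14*. Of 5 Schwann cell markers, 1 passed, *Mbp*, a myelin protein, which fell by 0.91 (limma adjusted p = 0.0461). *Mbp* lost this call in 7 of 15 alternative analyses (adjusted p-values up to 0.165), 5 of them with 1 array left out, and as the mean of its probe sets it gave −0.28 (limma adjusted p = 0.142). The median change of the Schwann cell list was 0.19, at list means of 6.41 to 6.90 and 6.51 to 7.14. Fibroblast markers (0 of 6 passed, 1 at an unadjusted p under 0.05) averaged 4.74 to 4.82 and 4.52 to 4.72, and leukocyte and endothelial markers (0 of 8, with 2 at an unadjusted p under 0.05) 4.68 to 4.93 and 4.38 to 4.53. The mean level of the melanocyte markers ranged over 4.66 to 4.80 on the + dox arrays, against 4.65 to 4.83 for − dox.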

How the data were processed

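Total RNA of 6 samples, 3 per group by their labels, was hybridised to Affymetrix mouse arrays. The deposited values are log2 values that the authors made with RMA in Chipster. The Chipster version was not given in the sources used here, and the log2 scale was read from values between 2.08 and 14.44. Of 45101 probe sets, 64 array controls were left out. The platform annotation of 2016 gave 1 gene to 34945 probe sets and several to 932, named 13 of the controls, and did not list 9211, the other 51 controls among them. Each gene was represented by its probe set of highest mean. The comparison of + dox with − dox used limma 3.58.1 under R 4.3.3 (functions lmFit and eBayes, two-sided, no covariate), with Benjamini-Hochberg adjustment over 18193 genes, or over 45037 probe sets in a second fit. The fit over 18193 genes was tested on simulated data. Recovery was 7.16% at a log2 difference of 0.5, 57.0% at 1 and 86.1% at 2. The number of arrays limits the precision.

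The members and lists were chosen with earlier results of these data known. All members were named, and from each list up to 4 called genes of largest change, or the 2 of smallest p where fewer than 2 were called. Of 92 genes in the lists of family and pathway genes, 86 were measured. *Adam8*, *Adam10*, *Adam15*, *Adam17*, the genes beside *Ereg* and the early genes below were named after their values were seen. As alternatives, the replicate number entered as a block, and the fits were repeated with other values per gene, filters on dim probe sets, eBayes with trend and robust settings, other normalisation, arrays left out and other thresholds. Same-numbered arrays did not deviate together (r of −0.12, −0.22 and 0.08), so numbers were not taken as pairs.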

Additional observations from a re-analysis of the deposited data

How the results depend on the processing

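Over the alternatives of the gene fit, *Ereg* kept its call in 15 of 15 and *Nrg1* in 12 of 15. *Egfr*, *Erbb2*, *Tgfa*, *Btc* and *Epgn* were called in none, *Erbb3* in 3 and *Hbegf* in 1. *Btc* and *Epgn* had no value under the 40% filter, and *Areg* had none at all. With the replicate number as a block, 3 member genes and 3 member probe sets passed, *Erbb3* among them (1.05, limma adjusted p = 0.0430), with 1 gene of the ligand release list (*Timp3*, the inhibitor), 0 turnover genes, 0 early genes and 303 of all genes in place of 886. *Tgfa* turned to 0.09 without − dox 1 (range −0.47 to 0.09 over the single arrays left out) and to 0.28 without both arrays numbered 1. Without these 2 arrays the calls were 4 member genes, 5 member probe sets, 7 genes of the release list, 5 signal genes, 7 turnover genes, 6 early genes and 3649 of all genes. With each array left out in turn, the calls ranged from 1 to 3 member genes, 0 to 3 member probe sets, 0 to 3 genes of the release list, 0 to 2 signal genes, 0 to 5 turnover genes, 0 to 3 early genes, and 118 (without − dox 3) to 1650 (without + dox 1) of all genes. At an adjusted p under 0.01, 1 member gene, 1 member probe set, 0 genes of the release, turnover and early lists and 128 of all genes passed. An unadjusted p under 0.05 with a change over 2-fold gave 3 of 9 member genes and 1 of 20 turnover genes. It gave 0 of 15 early genes and 862 of all 18193 genes. The mean of all probe sets gave 2 of 15 early genes (788 of all genes), and the probe set of largest variance 1 of 32 signal genes (859 of all genes). The trend setting and quantile normalisation gave 0 of 15 early genes (758 and 912 of all genes). The cause was not tested. The number of arrays, 3 per group, limits what could be called.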

Other observations

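Several early genes of growth factor signalling spread widely among the − dox arrays and little among the + dox arrays. *Egr2*, an early zinc finger transcription factor, read 7.30, 4.31 and 4.69 on − dox 1, 2 and 3, against 6.12, 6.40 and 6.24 on + dox 1, 2 and 3. *Fos* (10.56, 8.91 and 8.08), *Egr1* (12.84, 10.84 and 10.81), *Fosb* (6.16, 3.91 and 4.02) and *Atf3* (8.36, 6.06 and 6.05) were likewise highest in − dox 1, and for all of them the + dox arrays lay between the lowest and the highest − dox values. The SD among − dox arrays was above 1 for 5 of 15 early genes, against 0.748% of all genes. Among + dox arrays it was above 1 for 0 of 15, against 208 of all 18193 genes. The median SD among + dox arrays was 0.145 for the early genes and 0.142 for all genes, so the early genes were not particular there. Among − dox arrays it was 0.348 against 0.150. Array − dox 1 was the highest of its group for 11 of 15 early genes, against 39.0% of all genes. These genes were picked for their spread, so this is a description, and what sets − dox 1 apart was not tested.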
